A study of Mus musculus with 10 samples.

Results

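ChIP-seq of H3K9me3 and H3K27me3 in Arid1a wildtype (WT) AB17 hepatocytes was compared, 2 of the 10 samples of the series. The 2 samples were taken as labelled by antibody and genotype, and their peak lists were set against each other on the 19 autosomes, where the H3K9me3 list held 141657 summits and the H3K27me3 list 108777. A summit is the single base at which MACS2 placed the top of a peak. AB17 cells are primary hepatocytes from the liver of a C57BL/6 mouse whose Arid1a alleles carry loxP sites (Arid1a fl/fl), immortalized with SV40 large T antigen and the H-Ras V12D virus, so both groups and their controls share a viral oncogene and an activated Ras. Infection with Ad-GFP left Arid1a in place in the WT cells, and Ad-Cre gave the knockout (KO) cells, whose H3K9me3 and H3K27me3 lists served here only as a second pair beside the WT pair. The antibodies were ab8898 for H3K9me3 and ab108245 for H3K27me3. Each mark was 1 library per genotype, so no test over samples was possible, and intervals are 95% Wilson intervals that cover counting error only. Neighbouring summits are not independent, which makes these intervals too narrow for anything but counting. Lists of repressive marks hold no expression values, and the hepatocyte identity of the cells could not be checked against expressed markers.

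H3K9me3 is the mark of constitutive heterochromatin. It is laid down by the Suv39h and Setdb1 enzymes, the latter brought to retroelements by KRAB zinc finger proteins, and it is bound by HP1 proteins at satellites, telomeres and transposons. H3K27me3 is laid down by Polycomb repressive complex 2, often at unmethylated CpG-rich starts of developmental regulators that are silent in the cell type, and it is bound by Cbx proteins of Polycomb repressive complex 1.

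To show what sequence the 2 antibodies reached at their tops, the reference sequence of the mm10 (GRCm38) plus strand is given for 2 of the strongest summits of each kind, with CG dinucleotides in capitals. The first pair carried H3K9me3 with no H3K27me3 summit within 1 kb. The summit at chr5:137152335-137152485 (−log10 q of 55.1) was intergenic, 3088 bp upstream of the start of Muc3, a membrane mucin, in sequence that was not soft-masked but repeated itself. The summit at chr9:35305344-35305494 (28.8) lay in an intron of a gene that is not protein-coding, in fully soft-masked sequence of the major satellite, the repeat of mouse pericentromeres.
H3K9me3 near Muc3: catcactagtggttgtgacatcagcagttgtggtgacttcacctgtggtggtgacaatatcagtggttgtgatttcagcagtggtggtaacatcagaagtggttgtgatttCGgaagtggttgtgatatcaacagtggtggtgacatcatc
H3K9me3 at satellite sequence: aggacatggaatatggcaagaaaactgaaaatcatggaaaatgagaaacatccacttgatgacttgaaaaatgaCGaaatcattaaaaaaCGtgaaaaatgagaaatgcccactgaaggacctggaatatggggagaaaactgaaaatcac
The second pair carried H3K27me3 with no H3K9me3 summit within 1 kb. The summit at chr19:44753531-44753681 (58.1) was intergenic, 2439 bp upstream of Pax2, a paired box regulator of kidney and eye development. The summit at chr2:31638999-31639149 (53.9) lay 963 bp upstream of Prdm12, a regulator of sensory neurons, with 11 CG dinucleotides in 151 bases.
H3K27me3 near Pax2: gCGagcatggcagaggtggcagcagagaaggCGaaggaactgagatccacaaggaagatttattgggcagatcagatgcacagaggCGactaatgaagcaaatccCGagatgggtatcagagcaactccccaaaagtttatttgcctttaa
H3K27me3 near Prdm12: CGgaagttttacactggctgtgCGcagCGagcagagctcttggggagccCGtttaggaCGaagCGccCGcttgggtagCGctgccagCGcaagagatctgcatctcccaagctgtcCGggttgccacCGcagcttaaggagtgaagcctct
The third pair carried both marks with summits 11 and 3 bp apart. The site at chr16:57391384-57391534 (H3K9me3 52.9 and H3K27me3 46.8) lay in an intron shared by Filip1l and Cmss1 and held 18 CG dinucleotides. The site at chr3:5860497-5860647 (49.99 and 43.9) was intergenic, 109766 bp from the nearest coding start, Gm8797. Neither window held a soft-masked base, and both read as sequence of the large ribosomal RNA, which was recognised from general knowledge and was not matched to a ribosomal gene here.
Both marks within Filip1l: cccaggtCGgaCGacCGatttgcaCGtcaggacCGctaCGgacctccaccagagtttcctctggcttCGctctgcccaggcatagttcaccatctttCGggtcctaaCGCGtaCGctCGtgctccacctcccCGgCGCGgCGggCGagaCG
Both marks on chromosome 3: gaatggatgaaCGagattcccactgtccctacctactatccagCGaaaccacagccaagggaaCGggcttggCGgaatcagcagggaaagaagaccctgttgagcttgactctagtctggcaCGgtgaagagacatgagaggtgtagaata

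The lists differed in how summits were spread before any overlap was counted. Most summits of both marks lay close to the calling threshold of 1.3, with a median −log10 q of 2.64 for H3K9me3 and 2.55 for H3K27me3, but H3K27me3 had more strong summits. Those of at least 10 numbered 319 (0.225%) for H3K9me3 and 2499 (2.30%) for H3K27me3. Read depth is unknown from the lists, so summit numbers were not compared between marks as amounts of modification. The WT H3K27me3 list shared 54.6% of its summits with the KO list of the same mark within 1 kb, where that list reached 5.86% of the sequence. The WT H3K9me3 list shared 30.9% with its KO list, which reached 9.76%. In 2403 bins of 1 Mb, WT H3K9me3 counts ranked more like WT Rad21 counts (Spearman rho 0.884) and Arid1a counts (0.826) than like KO H3K9me3 counts (0.705), whereas WT H3K27me3 ranked most like KO H3K27me3 (0.968) among the lists compared. These rhos are descriptions over bins that share GC content and gene density. Values for the Arid1a, Brg1, Ctcf and Rad21 summits of the WT cells are therefore given beside the results, and their part in the H3K9me3 list was not tested. How far the WT H3K9me3 list reflects H3K9me3 itself could not be settled from the lists, and each H3K9me3 count here, at gene starts above all, is a count of summits in that list.

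Summits of the 2 marks met slightly more often than the covered sequence alone gives. They met slightly less often than with the partner list moved by 20 kb. Of the H3K9me3 summits, 11876 (8.38%, 8.24 to 8.53) had an H3K27me3 summit within 1 kb, and of the H3K27me3 summits, 13134 (12.1%, 11.9 to 12.3) had an H3K9me3 summit. The sequence within 1 kb of the other mark was 7.44% and 10.5% of the autosomes, which put the shares at 1.13 and 1.15 times the covered sequence. To hold the neighbourhood fixed, the partner list was moved by 20 kb to either side, and the shares became 9.01% and 13.0%, so that the unmoved lists stood at 0.930 and 0.932 times this local level. In the KO cells the same 2 marks met less often by either measure. Of the KO H3K9me3 summits 4.96% (4.85 to 5.08) had a KO H3K27me3 summit, 0.848 times the covered sequence and 0.830 times the share after moving. Whether the WT and KO values differ beyond library differences was not tested, since each rests on 1 library per mark.

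The share of H3K9me3 summits with an H3K27me3 partner was lowest with the list moved by 2 kb, at 7.71%, and rose to 10.7% with the list moved by 500 kb. H3K27me3 summits behaved likewise, with 11.2% at 2 kb and 15.1% at 500 kb. The unmoved shares of 8.38% and 12.1% were above those at 2 kb, so the direction of the comparison depends on the distance moved. The same mark had the opposite course. The H3K27me3 list moved by 2 kb met itself at 56.4% of summits and at 14.7% once moved by 500 kb, and the H3K9me3 list at 30.4% and 14.8%. Where the marks did meet within 1 kb, 17.3% of the paired H3K9me3 summits had their nearest partner within 100 bp. A single partner spread evenly would give 10.045%. Several partners can lie within 1 kb, which raises the value for the nearest, so no closeness can be read from this. The nearest H3K9me3 summit was a median of 6.74 kb from an H3K27me3 summit, while the nearest H3K27me3 summit was a median of 49.3 kb from an H3K9me3 summit. Within 10 kb, 62.1% of H3K27me3 summits had an H3K9me3 summit and 25.2% of H3K9me3 summits had an H3K27me3 summit.

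**Figure D1:**
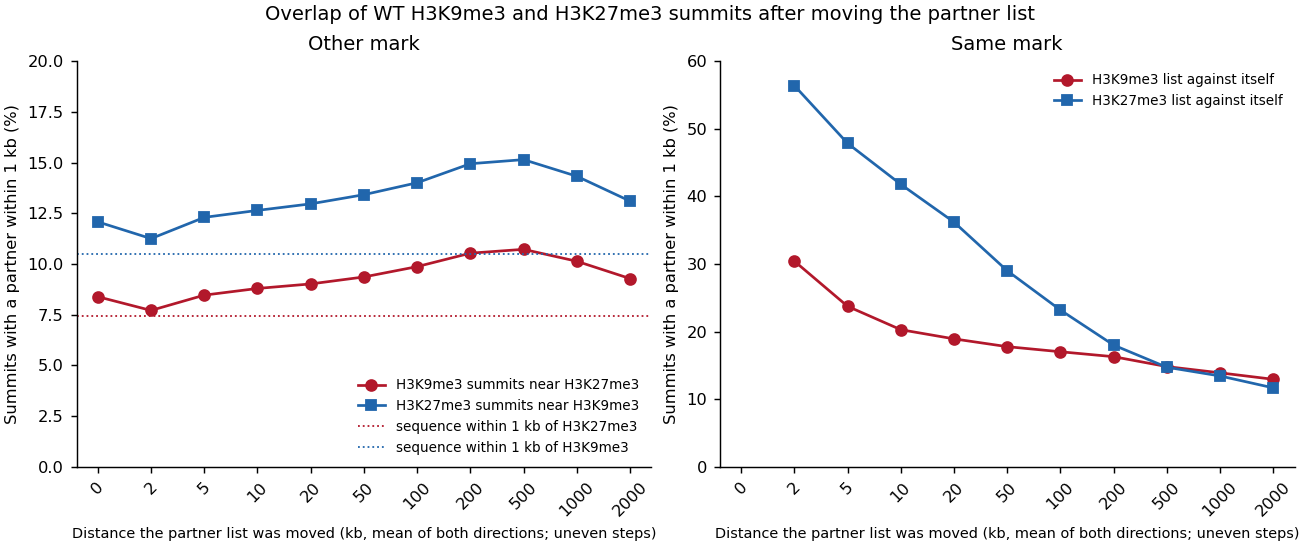
Share of WT summits (%, vertical axis) with a partner within 1 kb after the partner list was moved by the distance on the horizontal axis (kb, uneven steps, mean of both directions), for the other mark (left, dotted lines give the sequence within 1 kb of that mark) and for the same mark (right). Cross-mark shares were lowest at 2 kb (7.71% and 11.2%) and highest at 500 kb (10.7% and 15.1%), while same-mark shares fell from 56.4% and 30.4% at 2 kb.

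Overlap changed with strength, and differently for the 2 marks. Among H3K9me3 summits with a −log10 q under 2.5, 9.23% (8.997 to 9.47) had an H3K27me3 partner, against 9.54% with the list moved by 20 kb. Of those from 5 to 10, 3.60% (3.14 to 4.13) had a partner, against 6.59% after moving, a ratio of 0.546. The 319 H3K9me3 summits of at least 10 did not continue this course, with 24 partnered (7.52%, 5.11 to 10.95) against 7.84% moved. H3K27me3 summits went up with strength. Under 2.5, 11.3% (11.1 to 11.6) had an H3K9me3 partner, against 11.9% moved, and at 10 or more 24.4% (22.8 to 26.1) had a partner, against 14.9% moved, a ratio of 1.64. Of the 610 partnered H3K27me3 summits in that class, 38 had an H3K9me3 summit of at least 5 nearby. Among all H3K9me3 summits 4.09% reach 5, a share of the other list that cannot be compared directly, since several partners can lie within 1 kb. The share of H3K27me3 summits near an H3K9me3 summit of at least 5 was 0.154% under 2.5 and 1.52% at 10 or more. Of the 610, 15 had KO summits of both marks within 100 bp, and their part in this rise was not tested.

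**Figure D2:**
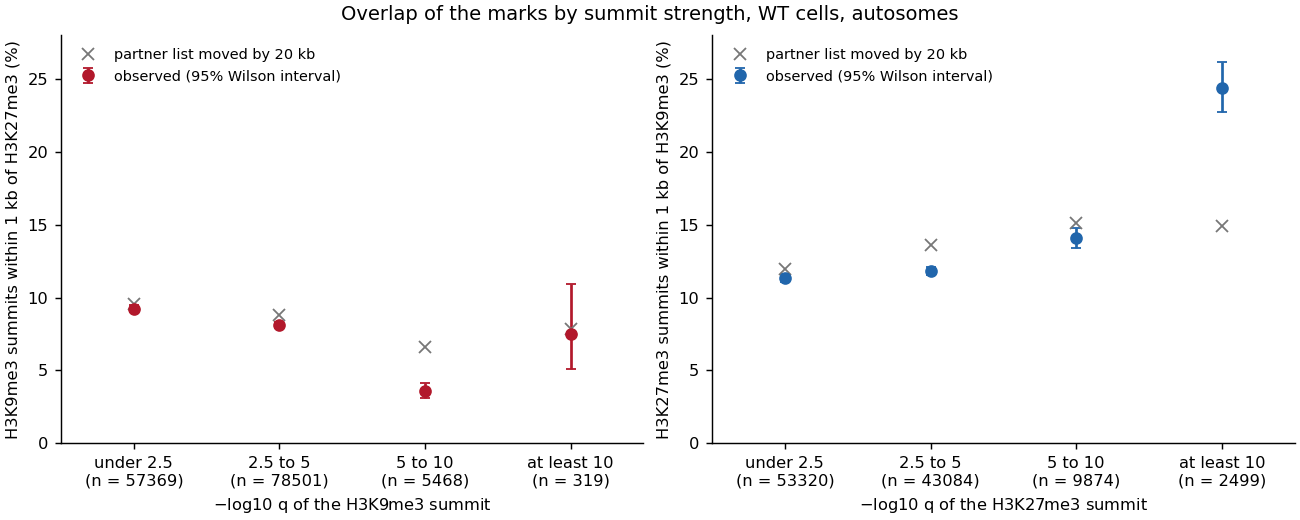
Share of WT summits of each mark (%, vertical axis) within 1 kb of the other mark by −log10 q of the summit (horizontal axis, number of summits in brackets), with 95% Wilson intervals for counting error and, as crosses, the share after moving the partner list by 20 kb. H3K9me3 summits from 5 to 10 stand at 3.60% against 6.59% moved and those of at least 10 at 7.52% against 7.84%, and H3K27me3 summits of at least 10 at 24.4% against 14.9%.

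Strong H3K27me3 summits met H3K9me3 more often at CpG-rich sequence and near factor summits than elsewhere. A window of 250 bp to either side of a summit was called CpG-island-like with a GC content of at least 50% and an observed to expected CpG ratio of at least 0.6. Of the 865 island-like H3K27me3 summits of at least 10, 30.5% (27.5 to 33.7) had an H3K9me3 partner, against 13.3% moved, and of the 1634 others 21.2% (19.3 to 23.2), against 15.7%. The share also moved with the factor lists, as it was 30.8% at the 1092 summits within 1 kb of an Arid1a, Brg1, Ctcf or Rad21 summit and 19.5% at the 1407 away from them. H3K9me3 summits of at least 5 split in the same way, with 8.83% (6.93 to 11.2) partnered among 691 island-like summits and 3.14% (2.70 to 3.65) among the 5096 others, where moving gave 6.51%. Away from CpG-rich windows, H3K9me3 and H3K27me3 summits of at least 5 met the other mark at 0.482 times the local level counted from H3K9me3 and 0.958 times counted from H3K27me3.

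Few sites had strong summits of both marks. At a −log10 q of at least 10 in both lists, 11 H3K9me3 summits had a partner, and 9 of them lay in CpG-island-like windows, 1 at a soft-masked base and 2 within 2 kb of a transcript start. At 8 of the 11 the KO cells had summits of both marks within 100 bp, which held at 1 of the 295 H3K9me3 summits of at least 10 without H3K27me3. The 5 strongest such sites, at most 1 per chromosome, were those in Filip1l and on chromosome 3 printed above, 1 on chromosome 11 (109011878, H3K9me3 60.8 and H3K27me3 43.3), an exon of Lars2, the mitochondrial leucyl-tRNA synthetase (chromosome 9, 123461994, 28.1 and 23.4), and an intron of Jarid2, a subunit of Polycomb repressive complex 2 (chromosome 13, 44869780, 19.8 and 32.005). At all 5 the WT summits of the 2 marks were at most 34 bp apart. The nearest KO summits of both marks were at most 61 bp away. The chromosome 11 site also read as large ribosomal RNA, recognised as for the 2 printed sites and not matched to a gene. Gene names here only locate the sites, and a link between the marks and those genes was not tested. Without the 12 H3K9me3 summits of at least 10 that had KO summits of both marks within 100 bp, the partnered share of that class went from 7.52% to 4.23% (2.49 to 7.11), while the share of H3K27me3 summits of at least 10 went only from 24.4% to 24.0%. The part of such recurrent positions in the overlap was not tested beyond this, and the leaving out was chosen after seeing the data.

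With regard to genes, the 2 lists as a whole were placed much alike, and they differed among the stronger summits. A summit within 2 kb of any annotated transcript start was counted as promoter, a class that holds 11.4% of the autosomal sequence. Promoters held 17.4% of H3K9me3 and 16.2% of H3K27me3 summits, and 43.2% and 46.3% lay between genes. At a −log10 q of at least 5, which 4.09% of H3K9me3 and 11.4% of H3K27me3 summits reach, the 2 lists parted. Promoters then held 13.4% of H3K9me3 and 31.3% of H3K27me3 summits, and 51.7% of H3K9me3 and 36.5% of H3K27me3 summits lay between genes. Summits that met the other mark were more often at promoters, at 23.6% of H3K9me3 and 22.4% of H3K27me3 summits, and at 42.7% of those H3K27me3 summits that reached 5 and had an H3K9me3 partner. Counted the other way, 11.3% (10.9 to 11.7) of promoter H3K9me3 summits had an H3K27me3 partner, 1.09 times the share after moving by 20 kb, whereas in introns 6.43% (6.22 to 6.64) had a partner, 0.823 times. Promoter H3K27me3 summits gave 16.7%, 1.15 times the moved share, and intronic H3K27me3 summits 10.05%, 0.836 times.

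H3K9me3 summits also lay among the factor summits of the same cells far more than H3K27me3 summits did. Of the H3K9me3 summits without H3K27me3, 36.5% (36.2 to 36.7) had an Arid1a, Brg1, Ctcf or Rad21 summit within 1 kb, and of the H3K27me3 summits without H3K9me3, 19.2% (19.0 to 19.5), where these lists together reach 17.8% of the sequence. For Brg1 alone the shares were 15.8% and 2.52%, with 6.23% of the sequence in reach, and for Arid1a 13.6% and 2.64%, with 5.47%. Ctcf gave 13.5% and 10.4%, with 6.66% of the sequence in reach, and Rad21 17.5% and 10.9%, with 7.35%. H3K27me3 summits with an H3K9me3 partner stood between for Brg1 (6.28%) and Arid1a (6.05%) and above both for Ctcf (16.7%) and Rad21 (19.5%). At promoters 59.5% of the H3K9me3 summits without H3K27me3 had a factor summit and 19.4% a KO H3K9me3 summit, while away from promoters these shares were 31.8% and 34.6%. The part of the factor positions in the H3K9me3 list was not tested.

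At the scale of 1 Mb both marks followed the same broad landscape. A bin held a median of 47 H3K9me3 summits (highest 243) and 20 H3K27me3 summits (highest 345), and 398 of the 2403 bins had no H3K27me3 summit whereas 2 had no H3K9me3 summit. The counts ranked together with a Spearman rho of 0.552 and a Pearson r of 0.410. Both followed GC content, with rho 0.642 for H3K9me3 and 0.817 for H3K27me3, and coding gene starts, with 0.594 and 0.641. Within 5 equal groups of bins by GC the relation between the marks was weaker or negative, with rho 0.01, 0.20, 0.16, 0.04 and −0.14 from the lowest to the highest GC, and 0.06 over all bins once the rank of GC was removed. H3K27me3 had the steeper course along GC, from 1.51 ± 2.95 summits per bin (SD over 481 bins) in the lowest group to 114.3 ± 67.03 (481 bins) in the highest, while H3K9me3 went from 23.4 ± 20.4 to 101.7 ± 44.0.

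The densest bins of the marks coincided in part. The top 10% by H3K9me3 held 250 bins and the top 10% by H3K27me3 243, with 49 in common, 19.6% of the former and 20.2% of the latter, where these sets were 10.4% and 10.1% of all bins. H3K27me3 was the more concentrated, with 40.3% of its summits in its top 10% against 26.3% for H3K9me3. The first H3K9me3 bin, on chromosome 15 from 97000001 to 98000000, had 243 H3K9me3 and 67 H3K27me3 summits and held Slc38a4, an amino acid transporter, and Vdr, the vitamin D receptor. The second, on chromosome 10 from 120000001 to 121000000, had 235 and 29 summits and held Hmga2, an architectural chromatin protein. The third, on chromosome 10 from 82000001 to 83000000, had 232 and 39 summits and held the zinc finger genes Zfp873 and Zfp938. On the H3K27me3 side, the first bin, on chromosome 9 from 45000001 to 46000000, had 345 H3K27me3 and 47 H3K9me3 summits and held Cd3e, a subunit of the T cell receptor complex, and Il10ra, a cytokine receptor. It was followed by chromosome 8 from 87000001 to 88000000, with 335 and 23 summits around Cbln1, a secreted synapse organizer, and Zfp423, and by chromosome 4 from 125000001 to 126000000, with 333 and 43 around Grik3, a glutamate receptor. Bins high in both marks were 2 neighbours on chromosome 15 from 83000001 to 85000000, with 155 and 156 H3K9me3 and 205 and 250 H3K27me3 summits, and the major histocompatibility region on chromosome 17 from 34000001 to 35000000, with 152 and 192.

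**Figure D3:**
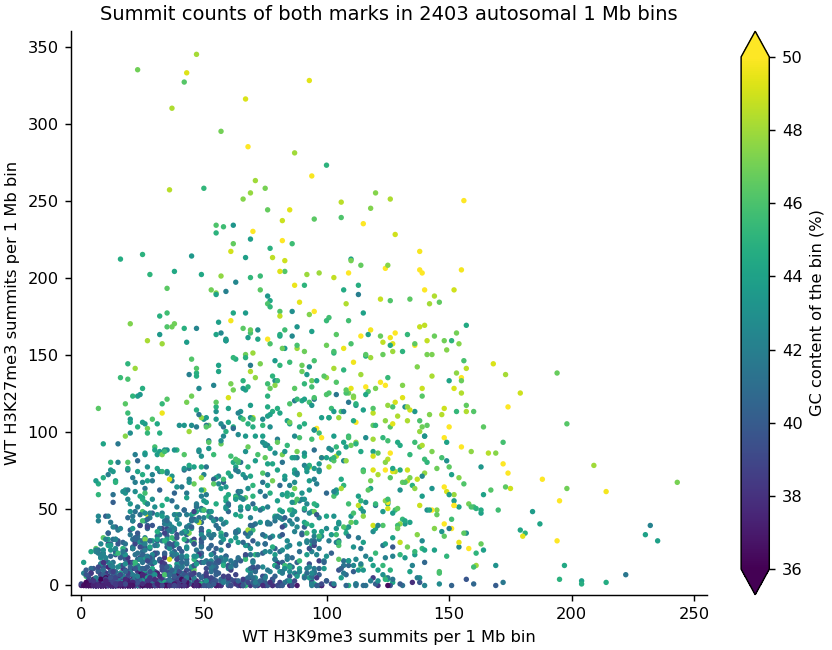
H3K27me3 summits against H3K9me3 summits in WT cells for 2403 autosomal 1 Mb bins, each point a bin coloured by its GC content (%). GC-poor bins gather near the H3K9me3 axis, the bin highest in H3K27me3 (345) has 47 H3K9me3 summits, and the bin highest in H3K9me3 (243) has 67 of H3K27me3.

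Chromosomes differed in the balance of the marks. H3K9me3 outnumbered H3K27me3 by 2.33 times per Mb on chromosome 10 (98.3 against 42.1), by 2.13 on chromosome 3 and by 1.99 on chromosome 16. H3K27me3 was the more numerous on chromosome 14 (24.5 against 18.9 per Mb) and chromosome 7 (50.1 against 45.3). Chromosome 13 was poor in both marks (20.6 H3K9me3 and 15.5 H3K27me3 summits per Mb) and chromosome 11 rich in both (87.1 and 75.7). This was not particular to the 2 marks. Ctcf and Rad21 summits stood at 18.4 and 16.7 per Mb on chromosome 13 and at 62.1 and 66.1 on chromosome 11. Over all autosomes they stood at 37.2 and 41.8 per Mb. In the KO lists H3K9me3 was also the more numerous on chromosome 10 (95.3 against 33.4 per Mb) and chromosome 3 (67.5 against 20.2). On chromosomes 14 and 7 the KO lists had more H3K9me3 than H3K27me3 (22.6 against 16.7 and 42.2 against 38.8 per Mb). Over all autosomes H3K9me3 stood at 59.1 against 45.4 per Mb for H3K27me3 in the WT lists. In the KO lists it stood at 54.9 against 35.7, so the order on single chromosomes also depends on list size. Arid1a summits ran low on chromosome 14 (3.77 per Mb) and high on chromosome 10 (61.3), but they did not follow the balance throughout. On chromosomes 3 and 16 they stood at 20.3 and 22.1 per Mb, under the 29.3 of all autosomes. They were highest on chromosome 19 (68.1), where H3K9me3 stood at 76.04 against 58.33 per Mb for H3K27me3. The part of Arid1a summits in these densities was not tested.

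H3K27me3 summits came in runs and H3K9me3 summits more often alone. With summits at most 3 kb apart joined, the H3K9me3 list gave 89954 runs, 70.3% of them single summits, and the H3K27me3 list 40435 runs, 47.7% single. Runs of 5 or more summits held 14.4% of H3K9me3 and 46.2% of H3K27me3 summits. The longest H3K9me3 run, 40.1 kb at chr11:83061119-83101197 with 23 summits, covered Slfn2, a Schlafen family gene. The next lay at chr8:70968635-71003607 (27 summits, no coding gene) and at chr9:22223323-22258102 (23 summits), which held Zfp809 and Zfp599, the former a KRAB zinc finger protein that silences retroviruses. None of these 3 held an H3K27me3 summit. The longest H3K27me3 run, 53.3 kb at chr9:54296339-54349679 with 34 summits, covered Gldn, which encodes the Schwann cell protein gliomedin, and held 3 H3K9me3 summits. It was followed by chr2:164199578-164245498 with Svs2, a seminal vesicle protein, and by chr2:35742159-35785242 in Ttll11, a tubulin-modifying enzyme, with 1 and 6 H3K9me3 summits inside. Over all H3K9me3 runs of 5 or more summits, H3K27me3 summits had a density of 19.0 per Mb, 0.419 times the 45.4 per Mb of the autosomes. Inside H3K27me3 runs of this size H3K9me3 had 58.1 summits per Mb, 0.983 times the 59.1 of all autosomes. Neither ratio was set against a local or GC-matched level. In 1 Mb bins H3K9me3 rose from a mean of 23.4 summits in the lowest GC group to 101.7 in the highest. The ratios therefore do not show whether H3K9me3 was depleted inside H3K27me3 runs for their GC content.

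Sequence content separated the marks by repeats more than by GC. Median GC over these windows was 46.7% at H3K9me3 and 47.7% at H3K27me3 summits, against 41.7% over tiled autosomal windows. A soft-masked base, the repeat annotation of the RefSeq sequence, lay under 39.2% (39.0 to 39.5) of H3K9me3 and 22.3% (22.0 to 22.5) of H3K27me3 summits, on either side of the 33.5% of the windows. Both contrasts widened with strength. At H3K9me3 summits of at least 10, 71.5% (66.3 to 76.2) were soft-masked, and at H3K27me3 summits of at least 10, 9.04% (7.98 to 10.2), with a median GC of 50.3% and 56.1%. CpG-island-like windows made up 4.16% of H3K9me3 and 1.89% of H3K27me3 summits of any strength, an order that was reversed at 10 or more, with 24.8% (20.3 to 29.8) and 34.6% (32.8 to 36.5). Away from promoters the order at 10 or more was 25.8% for H3K9me3 and 13.1% for H3K27me3. Summits of either mark that met the other were richer in GC, at 48.7% for H3K9me3 and 48.9% for H3K27me3, and their soft-masked shares of 26.1% and 24.5% were near that of H3K27me3.

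The strongest H3K9me3 summits without H3K27me3 after the one near Muc3 were on chromosome 2 (98663860, 43.98) within Gm10801, on chromosome 12 (120028825, 29.3) in an array of the telomere repeat, at the satellite site on chromosome 9 printed above, and on chromosome 10 (3110130, 28.5) in sequence that was 100% soft-masked over its window. Each had a KO H3K9me3 summit at most 16 bp away. On the H3K27me3 side the strongest summit of all those without H3K9me3 (chromosome 8, 123587653, 68.9) lay in an array of ribosomal RNA genes, with 11 such RefSeq genes within 10 kb. The others were at Onecut3 (chromosome 10, 80495131, 63.1), near Pax2, in an exon of Uncx (chromosome 5, 139547345, 55.1) and near Prdm12, all developmental regulators.

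**Figure D4:**
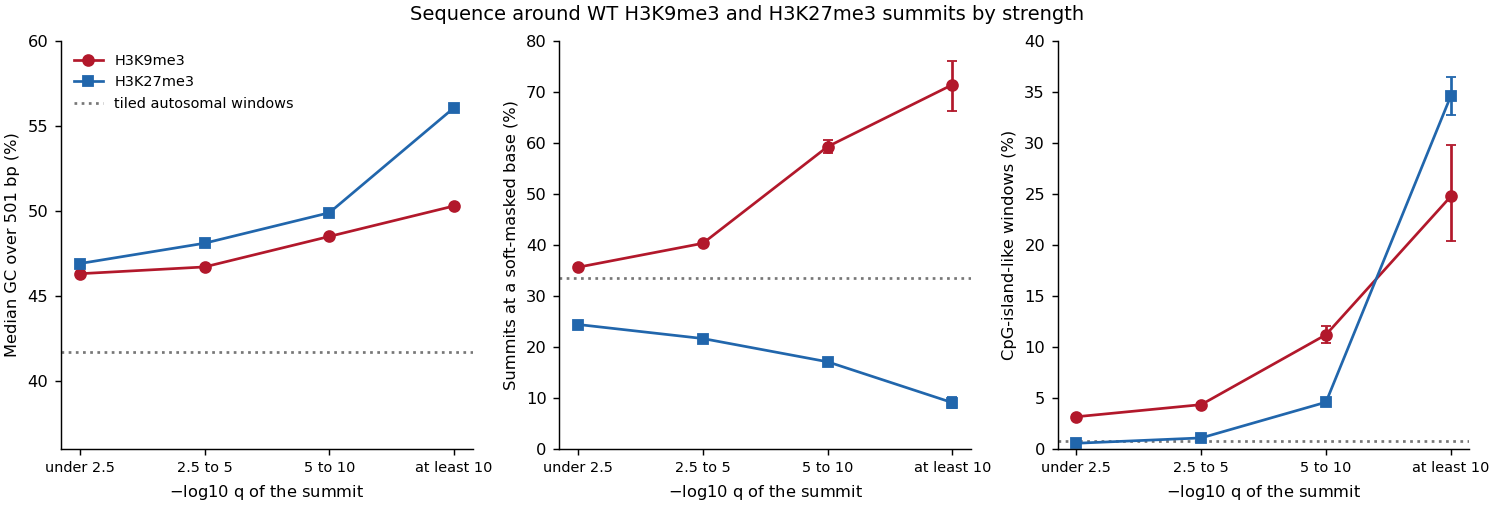
Median GC content within 250 bp (%, left), share of summits at a soft-masked base (%, middle) and share of CpG-island-like windows (%, right) by −log10 q of the summit, for WT H3K9me3 and H3K27me3, with 95% Wilson intervals on the shares and dotted lines for tiled autosomal windows. Soft-masked shares part from 35.6% and 24.4% under 2.5 to 71.5% and 9.04% at 10 or more.

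At gene starts the marks met slightly less often than the product of their shares gives. Of 20807 autosomal protein-coding genes, 8423 (40.5%) had an H3K9me3 summit and 5019 (24.1%) an H3K27me3 summit within 2 kb of the outermost start, 1819 (8.74%) had both and 9184 had neither. Independent placement of the 2 shares would give 2032 starts with both, so the observed number was 0.895 times that. Of the starts with H3K27me3, 36.2% (34.9 to 37.6) had H3K9me3, against 41.8% (41.1 to 42.6) of the starts without. The strongest H3K9me3 summit at each marked start had a median of 2.64, the same as the whole H3K9me3 list. For H3K27me3 it was 4.68, above the 2.55 of its whole list. A summit of at least 5 was found at 1.42% of starts for H3K9me3 and at 10.8% for H3K27me3. Values are not normalised between the lists, of which 4.09% and 11.4% of summits reach 5, so the 2 shares come from unequal cuts.

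The classes of starts differed in sequence and in factor summits. Starts with H3K9me3 only were the most CpG-rich, with 67.8% island-like windows, followed by starts with both (54.6%), with H3K27me3 only (38.3%) and with neither (37.6%). A Brg1 summit lay within 2 kb of 68.6% of the H3K9me3-only, 31.2% of the shared, 12.6% of the H3K27me3-only and 34.0% of the remaining starts. A KO H3K9me3 summit was present at 18.9% of the H3K9me3-only starts, against 10.9% of the starts with neither mark and 14.5% of all starts. A KO H3K27me3 summit was present at 77.2% of the H3K27me3-only starts, against 4.22% of the starts with neither mark and 20.6% of all starts. The shortfall of shared starts changed with the factors. At starts that were not island-like and had no factor summit, the 310 shared starts of 5889 were 1.42 times the product of the shares, while at the other 3 combinations of island and factor the ratio ran from 0.887 to 0.939. Island-like starts without a factor summit had the highest H3K27me3 share, 507 of 858 (59.1%), and island-like starts with one the highest H3K9me3 share, 5216 of 9292 (56.1%).

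Developmental regulators carried H3K27me3 at their starts, often strongly. Among 119 homeobox genes outside the Hox clusters, 69 (58.0%) had H3K27me3 and 50 (42.0%) H3K9me3, and the median of the H3K27me3-marked starts was 18.8 against 4.68 over all genes. The highest were Onecut3 (63.1), a cut-domain regulator, Lmx1b (50.7), which patterns limbs and serotonergic neurons, Tlx2 (46.2) and Tlx3 (38.5). H3K9me3 at Lmx1b, Tlx2 and Tlx3 was 2.52, 2.64 and 2.64, and Onecut3 had no H3K9me3 summit. Of 63 Wnt, Fgf and Bmp family genes, 41 (65.1%) had H3K27me3, led by Wnt1 (36.8), Fgf11 (36.4) and Wnt3a (34.1), none of which had an H3K9me3 summit. Neuronal bHLH genes gave 16 of 26 for H3K27me3 and 6 of 26 for H3K9me3. Bhlhe23 (25.5), Olig2 (25.5), which specifies oligodendrocytes, and Neurog2 (24.5) and Neurog3 (23.5), which specify neurons and endocrine cells, had H3K27me3 and no H3K9me3. Sox, Fox and Gata genes gave 35 of 64 and T-box genes 10 of 16 for H3K27me3, with Foxe1 (41.9), Foxl2 (36.1), Tbx21 (24.9) and the mesoderm gene T (22.2) in front. A median of 9.23 was reached at the H3K27me3-marked Wnt, Fgf and Bmp family starts and 17.98 at the bHLH starts. The 4 lists and the homeobox genes stood above the 24.1% of all starts for H3K27me3, and above 8.74% for both marks except for the bHLH genes, where 2 of 26 starts had both. For H3K9me3 the share of all starts was 40.5%, near the 42.0% of the homeobox genes. The bHLH share was lower (23.1%), with an interval of 11.0 to 42.1 that holds the share of all starts.

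The Hox clusters were set apart from the other homeobox genes. Of 39 Hox genes, 10 (25.6%) had H3K27me3, near the 24.1% of all starts. H3K9me3 was present at 28 (71.8%, 56.2 to 83.5), against 40.5% of all starts, and 6 (15.4%) had both, against 8.74%. The highest H3K27me3 values were at Hoxc12 (25.7), Hoxd1 (25.5), Hoxa13 (22.2) and Hoxc13 (12.8). The H3K9me3 summits were weak, none above the 4.03 of Hoxa10 and Hoxb7, and 87.2% of the Hox starts had a factor summit within 2 kb, against 67.6% of all starts. KO H3K9me3 summits were present at 10 and KO H3K27me3 summits at 12 of the 39 starts, against 14.5% and 20.6% of all starts. Neighbouring Hox starts can share a summit.

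At zinc finger, protocadherin and ribosomal protein starts the H3K27me3 share was under that of all genes (24.1%), and the H3K9me3 share was near or over that of all genes (40.5%). Of 410 Zfp genes, 192 (46.8%, 42.1 to 51.7) had H3K9me3 and 46 (11.2%, 8.52 to 14.6) H3K27me3. Across Zfp gene bodies the density was 13.1 H3K9me3 summits per 100 kb, against 6.52 over all coding genes, and 3.72 for H3K27me3, against 4.46. The strongest H3K9me3 starts were Zfp983 (8.21), Zfp809 (7.30), Zfp532 (6.43) and Zfp12 (6.34), and 9 of the 410 reached 5. H3K9me3 was also found at 25 of 57 clustered protocadherin starts (43.9%, 31.8 to 56.7), which encode the cell surface barcode of neurons, and H3K27me3 at 5, with no start in both. Pcdhga11 (7.30), Pcdhgb5 (6.43) and Pcdhgb7 (6.10) led for H3K9me3 and Pcdhac2 (11.2) for H3K27me3, and the KO cells had H3K9me3 summits at 37 of the 57. Ribosomal protein genes, which are active in every cell, had H3K9me3 at 41 of 71 starts (57.7%, 46.2 to 68.5), none above the 4.79 of Rpl11, and H3K27me3 at 6. All 71 had a factor summit within 2 kb and 10 had a KO H3K9me3 summit, against 67.6% and 14.5% of all starts. Histone genes gave 12 (17.9%) and 0 of 67, under the share of all genes for both marks. Olfactory receptors were low in both marks, at 53 and 89 of 1087 (4.88% and 8.19%), as were vomeronasal receptors, at 8 and 2 of 326, and their starts were poor in GC, with medians of 37.3% and 39.1%.

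Genes of the liver and of other cell types were set beside all starts (40.5% with H3K9me3, 24.1% with H3K27me3, 8.74% with both). Here and in the lists of germline, Polycomb and H3K9 genes, 6 listed genes had no autosomal coding start under their symbol and were left out. Hepatocyte transcription factors had H3K27me3 at 12 of 19 starts and H3K9me3 at 10, with both at 6. Ppara (26.5), the receptor that drives fatty acid oxidation, Foxa3 (24.4), Cebpa (20.4), Foxa1 (19.0) and Prox1 (15.5) were highest for H3K27me3, while Hnf4a, the nuclear receptor central to hepatocyte identity, had 2.55 and no H3K9me3 summit (a gene named after its values were seen). Hepatocyte secreted proteins gave 13 of 31 for H3K27me3 and 7 for H3K9me3, with Vtn (13.9) and Rbp4 (12.2) first and a median of 2.79. Endothelial genes gave 10 of 20 and 7 of 20, with Plvap (17.9), Sox18 (16.6) and Erg (13.8) highest for H3K27me3, and blood cell genes 8 of 23 and 5 of 23, with Mpo (12.9) and Cd3g (9.46). The intervals for these 4 lists overlap each other widely, so no order among them can be read. Cytochrome P450 genes of families 1 to 4 had H3K27me3 at 20 and H3K9me3 at 17 of 75 starts, near and under the 24.1% and 40.5% of all genes.

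**Figure D5:**
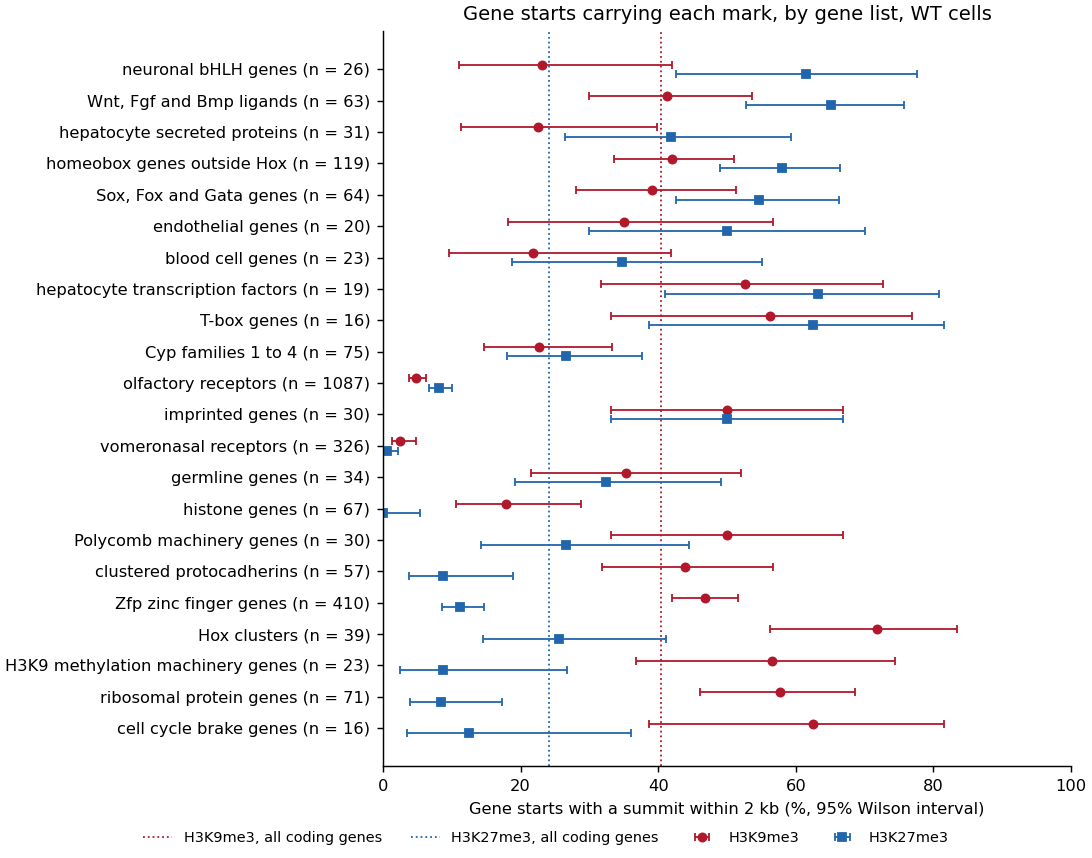
Share of autosomal coding gene starts (%, horizontal axis) with a WT H3K9me3 or H3K27me3 summit within 2 kb for 22 gene lists, with 95% Wilson intervals and dotted lines for all coding genes (40.5% and 24.1%). Developmental regulator lists lie toward the top with H3K27me3 above its line (58.0% for homeobox genes outside Hox), and ribosomal protein, Zfp and Hox genes toward the bottom with H3K9me3 above H3K27me3.

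Imprinted genes and the enzymes of the marks themselves were examined as well, against the 40.5% (H3K9me3) and 24.1% (H3K27me3) of all starts. Of 30 imprinted genes, 15 had H3K9me3, 15 had H3K27me3 (each 33.2% to 66.8%) and 6 had both. Nnat had the highest H3K9me3 of the list (12.6) and no H3K27me3, followed by Zrsr1 (6.15) and Mcts2 (5.94), whereas Cdkn1c (17.98), Rasgrf1 (15.95) and Kcnq1 (14.0) were highest for H3K27me3. Germline genes gave 12 of 34 (35.3%) for H3K9me3 and 11 (32.4%) for H3K27me3, with intervals that hold the shares of all starts, led by Tdrd6 (10.3) and Stag3 (7.77) for the latter. Polycomb genes had H3K27me3 at 8 of 30 starts (26.7%, near that of all starts), among them Bmi1 (14.3) and Cbx2 (11.1), and H3K9me3 at 15 (33.2% to 66.8%). Of 23 genes of H3K9 methylation, 13 had H3K9me3 (56.5%, 36.8 to 74.4) and 2 had H3K27me3 (8.70%, 2.42 to 26.8), intervals that also hold the shares of all starts. Setdb1, the H3K9 methyltransferase on chromosome 3 (95323525 to 95357202, minus strand), was the only start in that list with both, at 6.10 and 7.66, with 3 KO H3K9me3 summits and 1 KO H3K27me3 summit. Cell cycle brakes had H3K9me3 at 10 of 16 starts (38.6% to 81.5%) and H3K27me3 at 2 (3.498% to 36.02%), Cdkn1c and Cdkn1a (1.78).

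Single gene starts with the strongest marks fell into 3 kinds. The 8 strongest starts with H3K9me3 alone were all predicted genes, 6 of them at the proximal end of chromosome 9, with Gm10801 on chromosome 2 (44.0) first, then Gm10715 (25.9) and Gm21738 on chromosome 14 (25.6), and 50.7% to 98.4% of their start windows was soft-masked. All 8 had KO H3K9me3 summits. Among the strongest with H3K27me3 alone were Onecut3 (63.1), Nxph4 (49.2) and Bcan (47.4), both secreted brain proteins, Foxe1 (41.9), a thyroid regulator, Elfn2 (41.7), Rfx4 (41.0), and Sall1 (39.9), a kidney regulator. Of these genes, all but Nxph4 had a KO H3K27me3 summit within 2 kb. By the lower of the 2 values, the strongest starts with both were Nkx2-4 (H3K9me3 8.21, H3K27me3 28.96), Fcgr3 (7.89 and 39.9), an Fc receptor of macrophages, Cdh1 (7.81 and 11.8), Kcnn1 (7.21 and 13.0), Foxd3 (6.43 and 32.2), A4galt (6.39 and 13.9), C1ql1 (6.34 and 30.2) and Dbx1 (6.15 and 22.2). Cdh1 encodes E-cadherin, the epithelial junction protein, on chromosome 8 (106603351 to 106670246, plus strand), and its H3K9me3 summit lay 378 bp and its H3K27me3 summit 328 bp from the start, inside the gene. The KO cells had the H3K27me3 summit at Cdh1 and no H3K9me3 summit. At Nkx2-4, Fcgr3, Foxd3 and Dbx1 KO summits of both marks were present, and at Kcnn1, A4galt and C1ql1 of H3K27me3 alone.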

How the data were processed

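ChIP-seq libraries of H3K9me3 and H3K27me3 from WT AB17 cells were compared. Per the study's methods and the submitters' processing notes, the authors aligned reads to mm10 with Bowtie2, processed alignments with SAMtools and Picard, and ran MACS2 with its default settings on each library and its input. Versions are not given in the sources used here. The deposited values are −log10 q-values per summit, not normalised between libraries, and were used to rank and filter within a list. The 2 input samples entered only through that calling.

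Summits on the 19 autosomes were compared with Python 3.11.15, numpy 2.4.6, scipy 1.17.1 and matplotlib 3.10.9. A summit was shared with the other mark within 1 kb. Gene starts were the outermost starts of GENCODE vM21 coding genes, with a window of 2 kb. GC, CG and soft-masking came from the RefSeq GRCm38.p6 sequence, within 250 bp of a summit. Bins of 1 Mb needed 50% known sequence. Counting was tested on simulated data. Genes named were the highest of each list, the 8 strongest starts and 5 strongest sites per class, and the 3 densest bins and longest runs. A gene start that met this rule is not reported here. The members and gene lists were chosen with earlier results of these data known. Other windows, thresholds and exclusions were tried as alternatives.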

Additional observations from a re-analysis of the deposited data

How the results depend on the processing

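Each mark was 1 library, so there was no replicate to leave out, and depth is unknown from the lists, which limits every count near the calling threshold. No paired analysis was possible because the comparison came from no test over replicates. Of 57 alternative values, 50 were labelled as moved, 2 as changed in direction and 5 as near the reported value. Those 5 included the starts with both marks counted at any transcript start, 2726 against 1819, which is not near. The cause was not tested where a value moved, except that wider windows take in more summits and stricter thresholds leave fewer. The share of H3K9me3 summits near H3K27me3 (8.38%) and of H3K27me3 near H3K9me3 (12.1%) became 5.42% and 7.13% within 500 bp, 14.5% and 28.5% within 3 kb, 3.06% and 3.84% at a −log10 q of at least 3, 1.33% and 0.598% at 5, 8.12% and 9.10% with the longer list shortened, 11.2% and 22.9% with merged regions, and 7.65% and 11.0% over 2 kb from starts. Away from factor summits the H3K27me3 share was 9.79%. The ratio of the H3K9me3 share to the covered sequence (1.13) was 1.24, 1.10, 1.04, 1.32, 1.09, 1.45 and 1.22 in the same order, 1.40 away from factor summits and 1.18 with the X chromosome, and it turned under 1, to 0.930, against the list moved by 20 kb. The rank correlation over bins (0.552) was 0.240 in 100 kb bins, 0.644 in 5 Mb bins, 0.255 at 5, 0.504 away from starts, 0.410 as Pearson's r, 0.0612 with GC removed and 0.471 away from factor summits. Starts with both marks (1819) numbered 869 within 1 kb, 3664 within 5 kb, 445 at 3, 21 at 5 and 617 away from factor summits. Their ratio to the product (0.895) was 0.810, 0.975, 0.772 and 0.662 in that order and 0.970 with any transcript start, and it turned over 1, to 1.90, away from factor summits. That last setting empties both marks at the same starts while the product is still taken over all starts, which raises the ratio by construction, and among starts without a factor summit the ratio was 1.42 (not island-like) and 0.939 (island-like). The ratios of 1.40 and 1.22 to the covered sequence are raised in the same way, since both lists were restricted and the sequence was not. The GC difference (0.998 points) was 1.98 over 50 bp and 1.10 over 500 bp of flank, 2.20 at 5, 1.40 away from starts and 1.40 away from factor summits. The soft-masked difference (17.0 points) was 14.9 over 500 bp, 44.5 at 5, 19.7 away from starts and 22.4 away from factor summits.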
